A study of Rattus norvegicus with 6 samples.

Results

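Glutathione S-transferases (GSTs) join the tripeptide glutathione to electrophilic compounds, which makes them soluble and marks them for export. The cytosolic enzymes fall into classes, among them alpha, mu, pi, theta and omega, and a separate family of membrane-bound enzymes (MAPEG) carries out similar reactions in microsomes and mitochondria. The conjugates leave the cell through ABC transporters and are trimmed to mercapturic acids, a route for which the kidney tubule is known. Many GST genes are classical targets of Nrf2, a transcription factor that responds to electrophiles. Streptozotocin (STZ) is a nitrosourea attached to glucosamine that alkylates DNA.

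The 10 genes described here were chosen by name, namely Gsta1, Gsta4, Gstm1, Gstm2, Gstp1, Gstt1, Gstt2, Gsto1, Mgst1 and Mgst2. Each had 1 row among the 18930 genes of the deposited table, and all 10 passed the filter on low counts, which kept 11870 genes. NRK-52E is an established line of rat kidney epithelial cells, labelled as wild type, and the groups were Control, 3 samples that received vehicle, and STZ, 3 samples exposed to 10 mM STZ for 24 h. The labels do not say whether the samples were separate cultures, so p-values measure only the spread between these samples. The comparison asks which of these detoxification genes differed in mRNA level after STZ.

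Total counts were between 10430924 and 15191349 reads per sample, and the genes described here had between 26 and 3550 reads. Of 12 epithelial markers, 8 had a row in the table, while Krt19, Epcam, Cldn1 and Ocln had no row. Of the 8, 5 (Krt8, Krt7, Cdh1, Tjp1 and Dsp) had at least 10 reads in every sample, and Krt18, Cdh2 and Cdh16 did not. Of 7 proximal tubule markers in the table only Aqp1 reached that number, and of 6 fibroblast markers 3 did (Col1a1, Col3a1 and Pdgfrb). Summed levels of the epithelial markers were 1710 to 1796 CPM (reads scaled to a common library size) in Control and 2289 to 2294 CPM in STZ, of which Krt8 made up 67.8%, and those of the fibroblast markers 99.6 to 111 CPM and 56.1 to 66.7 CPM. The 7 tubule markers, of which Aqp1 made up 90.3%, summed to 9.90 to 16.7 CPM in Control and 5.74 to 6.83 CPM in STZ. The 5 endothelial markers summed to 2.64 to 4.15 CPM and 1.65 to 2.40 CPM, and the 4 leukocyte markers, of which Cd14 made up 98.5%, to 102 to 104 CPM and 121 to 129 CPM. The part of these shifts in the results was not tested, and in bulk RNA fewer cells of one kind cannot be told apart from less RNA per cell.

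Of the 10 GST genes, 6 were higher in STZ than in Control and 0 were lower at an adjusted p-value under 0.05 (edgeR quasi-likelihood test, Benjamini-Hochberg adjustment over all genes tested). Over all genes tested, 25.9% were higher and 25.1% lower by the same rule. Mgst2, Gsta1, Gstp1, Gstt1, Gstm1 and Gsta4 rose, and Gsto1, Gstm2, Gstt2 and Mgst1 did not pass the threshold. Only Mgst2 also exceeded a log2 fold change of 1, a rule that 2.26% of all genes tested met in that direction. The median log2 fold change of the 10 genes was 0.20, against -0.01 for all genes tested. DESeq2 and limma-voom likewise called 0 of the 10 genes lower. Over all 11870 genes tested, they called 2451 and 2962 lower. All 3 STZ samples lay above all 3 Control samples in 4 of the 10 genes (Mgst2, Gstp1, Gsta1 and Gstm1), a pattern found in 28.6% of all genes tested.

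**Figure D1:**
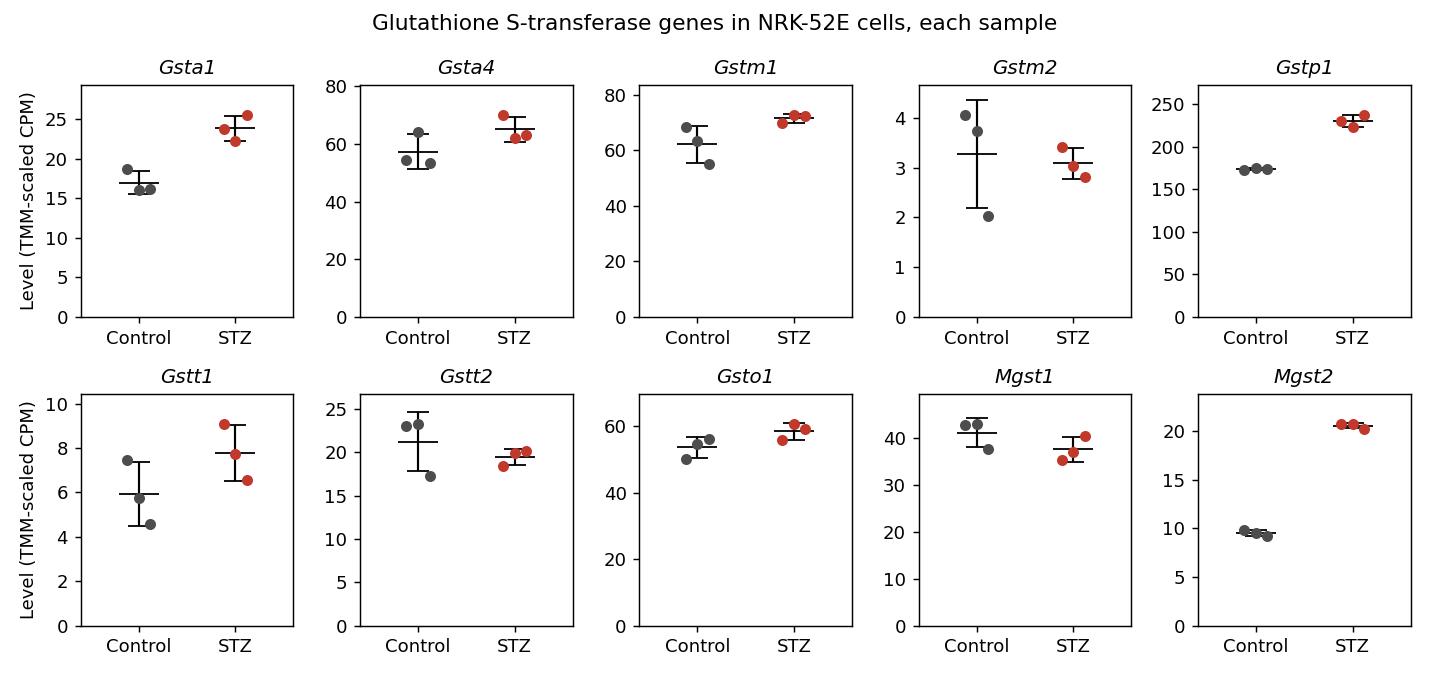
Level of each of the 10 GST genes in every sample, in TMM-scaled CPM on axes that start at 0, with the mean and SD of each group (n = 3). Mgst2 roughly doubles, from 9.52 to 20.5 CPM, Gstp1, Gsta1 and Gstm1 separate without overlap, and the groups of the other 6 genes overlap.

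Of the membrane-bound enzymes, Mgst2 rose and Mgst1 did not pass the threshold. Mgst2, which can also form leukotriene C4 from glutathione, had levels of 9.80, 9.55 and 9.20 CPM in Control replicates 1, 2 and 3 and of 20.7, 20.7 and 20.2 CPM in STZ replicates 1, 2 and 3. All STZ samples were high and close together, far from every Control sample. The mean rose from 9.52 ± 0.302 CPM in Control (SD, n = 3) to 20.5 ± 0.278 CPM in STZ (SD, n = 3), which is 1.11 ± 0.10 on the log2 scale (standard error, SE, from the fit, adjusted p = 1.6e-12). Mgst1, an abundant microsomal and mitochondrial enzyme that also reduces lipid peroxides, had 42.8, 42.9 and 37.5 CPM in Control and 35.3, 36.9 and 40.4 CPM in STZ. Its groups overlapped, with STZ replicate 3 above Control replicate 3. Its log2 fold change was -0.12 (95% interval -0.26 to 0.01, adjusted p = 0.13).

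The reads of Mgst2 per read of Mgst1, a ratio that no scaling of the libraries can change, were 0.229, 0.222 and 0.245 in Control and 0.588, 0.560 and 0.501 in STZ. The ratio was 2.36 times higher in STZ, and the groups did not overlap. The exact two-sided permutation p over the 6 samples was 0.1, the smallest that 3 samples against 3 allow. Across the 4 ratios tested within a class it was 0.2 after Benjamini-Hochberg adjustment.

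Gstp1 encodes the pi-class enzyme, known in the rat as a marker of early liver tumors and as a protein that binds the stress kinase JNK. It had levels of 173, 175 and 173 CPM in Control and of 230, 223 and 237 CPM in STZ. The Control samples were nearly level and every STZ sample lay above them. The mean was 174 ± 1.32 CPM in Control (SD, n = 3) and 230 ± 6.79 CPM in STZ (SD, n = 3), with a log2 fold change of 0.41 (± 0.04 SE, adjusted p = 2.0e-11). Among the 10 genes, Gstp1 had the smallest standard error and the highest read counts.

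Promoter windows from RefSeq (GRCr8) were available for 7 of the 10 genes, each from 250 bases before the transcription start to 50 bases after it. Mgst2, Gstt1 and Gstt2 had no window and were not searched. Both strands of the 7 windows were searched for TGACNNNGC, the core of the antioxidant response element that Nrf2 binds. They were also searched for TGANTCA, a loose form of the AP-1 site with any base at its centre, which reads the same on both strands. The last motif was GCGTG, the core of the element bound by the Ahr receptor. The first occurs in 12.1% of all 33469 windows, the second in 7.33% and the third in 29.7%. Among the 7 genes, 2 windows held the first (Gstp1 and Gsta1), 3 the second (Gstp1, Gsto1 and Mgst1) and 2 the third (Gsta4 and Gstp1), and those of Gstm1 and Gstm2 held none of them. In the Gstp1 window the first and second motifs overlap, both starting 61 bases before the transcription start. The 150 bases before the start are shown for Gstp1 and Gsta4, which rose, and for Mgst1, which did not pass the threshold, to set the motifs of these genes side by side. Capitals mark the matches. The sequence of Gstp1 is chr1:210769706-210769855 (minus strand), that of Gsta4 chr8:87947115-87947264 (plus strand) and that of Mgst1 chr4:172760780-172760929 (plus strand), all in GRCr8. The reads were mapped to an older build, Rnor6, so these windows were matched to the counts by gene symbol alone.
Gstp1: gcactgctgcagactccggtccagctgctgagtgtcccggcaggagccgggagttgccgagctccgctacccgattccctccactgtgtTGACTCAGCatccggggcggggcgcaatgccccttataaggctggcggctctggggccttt
Gsta4: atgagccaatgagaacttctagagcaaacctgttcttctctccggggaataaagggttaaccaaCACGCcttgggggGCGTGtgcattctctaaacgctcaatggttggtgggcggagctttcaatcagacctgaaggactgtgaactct
Mgst1: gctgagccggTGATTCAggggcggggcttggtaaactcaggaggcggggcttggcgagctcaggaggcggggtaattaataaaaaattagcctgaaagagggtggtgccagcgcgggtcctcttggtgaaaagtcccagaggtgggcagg
In these letters, the Gstp1 match is TGACTCAGC, the Mgst1 match is TGATTCA, and Gsta4 holds GCGTG once on each strand. A match describes the sequence only, and binding was not measured.

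Both alpha-class genes rose. Gsta1, which encodes an enzyme abundant in liver and proximal tubule, had 18.7, 16.1 and 16.1 CPM in Control and 23.7, 22.2 and 25.5 CPM in STZ. Every STZ sample was above every Control sample, and the log2 fold change was 0.50 (± 0.09 SE, adjusted p = 8.1e-06). Gsta4 encodes the enzyme that clears hydroxynonenal, an aldehyde from oxidized lipids, and had 54.4, 64.2 and 53.3 CPM in Control and 70.0, 62.0 and 63.2 CPM in STZ. Its groups overlapped, because Control replicate 2 lay above 2 of the STZ samples. Its log2 fold change of 0.19 (± 0.06 SE, adjusted p = 0.0098) lost the call when Control replicate 1 (0.15, adjusted p = 0.050), Control replicate 3 (0.13, adjusted p = 0.091) or STZ replicate 1 (0.13, adjusted p = 0.11) was left out. The ratio of Gsta1 to Gsta4 reads ranged from 0.251 to 0.343 in Control and from 0.339 to 0.403 in STZ (exact permutation p = 0.2, adjusted p = 0.27). The symbols of rat alpha-class genes have moved between genes over time, and RefSeq lists Gsta1 as an older name of the gene now called Gsta2. The deposited table gives symbols without gene identifiers, so the row Gsta1 cannot be tied to one of these genes, and the promoter matched to it may belong to another.

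In the mu class, Gstm1 rose slightly and Gstm2 did not pass the threshold. Gstm1, a major cytosolic enzyme with a broad range of electrophilic substrates, had 68.4, 63.3 and 55.2 CPM in Control and 69.8, 72.7 and 72.3 CPM in STZ. The Control samples were spread out, with replicate 1 just under the lowest STZ sample. The log2 fold change was 0.21 (± 0.06 SE, adjusted p = 0.0031), and without Control replicate 3 it was 0.12 (adjusted p = 0.091). Gstm2 had 4.05, 3.73 and 2.03 CPM in Control and 3.42, 3.04 and 2.80 CPM in STZ, from 26 to 47 reads per sample. The STZ samples lay inside the range of the Control samples. The log2 fold change was -0.06, and its 95% interval, -0.51 to 0.40, was the widest of the 10 genes. The ratio of Gstm2 to Gstm1 reads ranged from 0.0367 to 0.0592 in Control and from 0.0388 to 0.0490 in STZ. It was 0.85 times that of Control in STZ (exact permutation p = 0.4, adjusted p = 0.4).

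The theta-class genes Gstt1 and Gstt2, whose enzymes act on small halogenated compounds and sulfate esters, both had overlapping groups. Gstt1 had 7.45, 5.73 and 4.60 CPM in Control and 9.09, 7.73 and 6.54 CPM in STZ, so that Control replicate 1 exceeded STZ replicate 3. Its log2 fold change was 0.41 (± 0.16 SE, adjusted p = 0.032). Gstp1 had the same value with a smaller error. The call was lost by DESeq2 (adjusted p = 0.11), with library size only (adjusted p = 0.050), and in 4 of the 6 fits that left out 1 sample. In these the value was 0.24 without Control replicate 3, 0.28 without STZ replicate 1, 0.39 without Control replicate 2 and 0.41 without STZ replicate 2. Gstt2 had 23.1, 23.3 and 17.3 CPM in Control and 18.4, 19.9 and 20.2 CPM in STZ. Control replicate 3 was the lowest of all samples and the other Control samples were the highest. Its log2 fold change was -0.11 (95% interval -0.30 to 0.08, adjusted p = 0.33). The reads of Gstt1 per read of Gstt2 were 0.322, 0.246 and 0.266 in Control and 0.494, 0.389 and 0.325 in STZ (exact permutation p = 0.1, the smallest possible here, adjusted p = 0.2).

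Gsto1, the omega-class enzyme, reduces dehydroascorbate and arsenic compounds rather than conjugating glutathione. It had 50.1, 54.8 and 56.2 CPM in Control and 55.8, 60.7 and 59.3 CPM in STZ. STZ replicate 1 lay under Control replicate 3, and the log2 fold change was 0.12 (95% interval 0.00 to 0.24, adjusted p = 0.078). Without Control replicate 3 it was 0.16 (adjusted p = 0.041) and without STZ replicate 1 0.16 (adjusted p = 0.041), both past the threshold.

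Control replicate 3 had the lowest level of the 3 Control samples for Gsta4, Gstm1, Gstm2, Gstt1, Gstt2, Mgst1 and Mgst2, and its summed level of the 10 genes was 425 CPM, against 452 and 459 CPM in Control replicates 1 and 2 and 529 to 547 CPM in STZ. Without it, 4 of the 10 genes were higher and 2 were lower, the latter being Gstt2 (log2 fold change -0.25, adjusted p = 0.023) and Mgst1 (-0.19, adjusted p = 0.028). In the same fit, 2850 of all 11957 genes tested were higher and 2734 lower. Mgst2, Gstp1 and Gsta1 stayed higher in all 6 fits that left out 1 sample. The part of Control replicate 3 in the other calls is given by these values, and a cause was not tested.

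**Figure D2:**
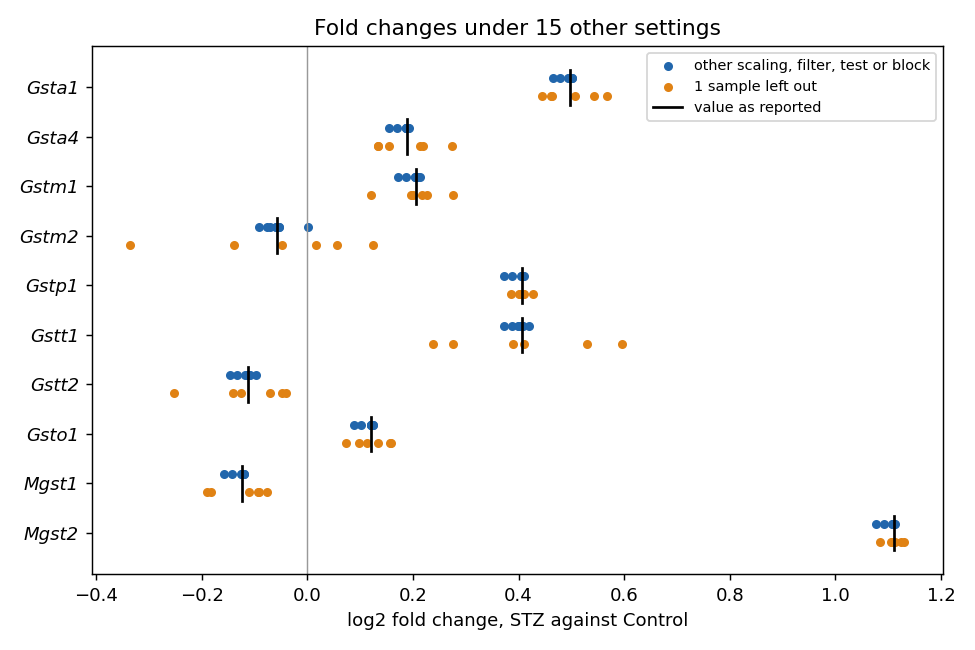
Log2 fold change of each of the 10 genes as reported (black line), under 9 other scalings, filters, tests and the block (blue), and after leaving out any 1 of the 6 samples (orange). Mgst2 stays between 1.08 and 1.13, Gstp1 between 0.37 and 0.43 and Gsta1 between 0.44 and 0.57, while Gstm2 falls on both sides of 0.

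A list of 25 further genes with a GST fold or of the MAPEG family was examined next, of which 12 had a row in the table and 7 passed the filter. Of these 7, 2 rose and 3 fell, against 25.9% and 25.1% of all genes, and 2 did not pass the threshold. Their median log2 fold change was -0.05. Gstm3 (0.22, adjusted p = 0.0032) and Gstm4 (0.41, adjusted p = 5.6e-05) rose, both of the mu class. RefSeq lists Gstm4 as another name of Gstm3, and Gstm3 as an older name of the genes now called Gstm5 and Gstm7, so these rows cannot be tied to 1 gene each. The genes that fell were Gstz1, which isomerizes maleylacetoacetate in tyrosine breakdown (-0.49, adjusted p = 1.2e-04), Gstcd, which carries only the C-terminal GST domain (-0.49, adjusted p = 6.3e-06), and Mgst3, of the MAPEG family (-0.99, adjusted p = 0.0073). Mgst3 had 15, 32 and 23 reads in Control and 13, 14 and 14 reads in STZ, and without Control replicate 2 its adjusted p was 0.13. Ptges2 (-0.05, adjusted p = 0.58), a prostaglandin synthase, and Eef1g (0.01, adjusted p = 0.87), a translation factor with a GST-like domain, did not pass. The other 5 genes were too low to test, with 2 to 4 reads per sample for Gstt3, 3 to 10 for Gsto2, 1 to 3 for Alox5ap and 0 to 1 for Gstk1 and Hpgds.

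Gstm6l, a mu-class gene outside both lists and named after its values were seen, had 478, 477 and 422 CPM in Control and 575, 591 and 572 CPM in STZ. All STZ samples were above all Control samples, with a log2 fold change of 0.34 (± 0.04 SE, adjusted p = 1.7e-09). Mu-class genes lie side by side in GRCr8 and resemble each other, and only uniquely mapped reads were counted, so reads may have been lost or misplaced among these rows. When the 6 mu-class rows were summed and the table refitted, the log2 fold change was 0.31 (± 0.04 SE, adjusted p = 1.0e-08). Most of this sum was Gstm6l, with 478 of 623 CPM in Control replicate 1 and 575 of 734 CPM in STZ replicate 1. The 3 alpha-class rows gave 0.27 (adjusted p = 5.5e-05), and the 3 theta-class rows gave 0.02 (adjusted p = 0.89). In the theta sum, Gstt2 gave more reads than Gstt1 in every sample.

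**Figure D3:**
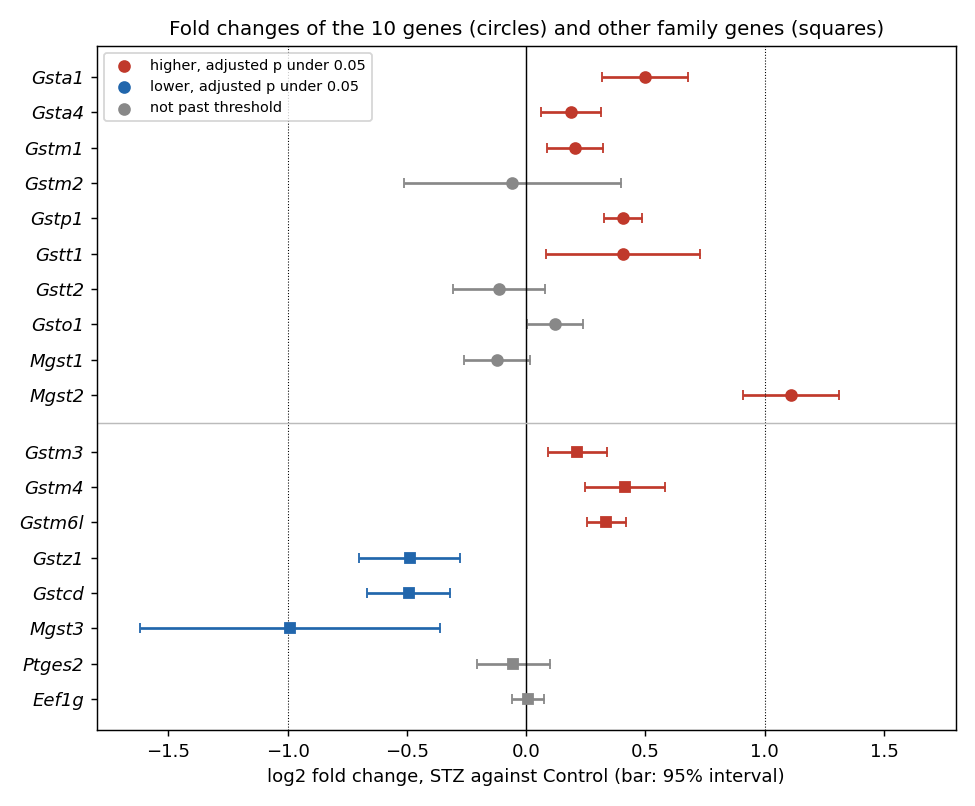
Log2 fold change (STZ against Control) with its 95% interval for the 10 GST genes (circles) and 8 related genes (squares), coloured by the adjusted p-value. Mgst2 stands alone beyond 1, the mu-class genes Gstm3, Gstm4 and Gstm6l are higher, and Gstz1, Gstcd and Mgst3 are lower.

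Of 6 genes tested that supply glutathione, 3 rose and 0 fell, against 25.9% and 25.1% of all genes, with a median log2 fold change of 0.13. Cth, which makes cysteine from cystathionine, rose by 0.81 (adjusted p = 3.5e-05), Slc3a2, the heavy chain of the cystine transporter and other amino acid transporters, by 0.22 (adjusted p = 1.4e-04), and Gclm, the modifier subunit of glutamate-cysteine ligase, by 0.21 (adjusted p = 0.0017). The catalytic subunit Gclc (0.05, 95% interval -0.03 to 0.13) and glutathione synthetase Gss (-0.07, 95% interval -0.19 to 0.04) did not pass the threshold. Slc7a11, the light chain of the cystine transporter, had only 9 to 17 reads per sample (-0.30, 95% interval -1.03 to 0.42).

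Among 13 genes of peroxide removal, glutathione reduction and thiol exchange, 5 rose and 3 fell, against 25.9% and 25.1% of all genes. Gpx8, a peroxidase of the endoplasmic reticulum, rose by 0.53 (adjusted p = 1.9e-15), the glutaredoxin Glrx3 by 0.52 (adjusted p = 1.1e-12) and the cytosolic peroxidase Gpx1 by 0.31 (adjusted p = 1.3e-08). Gsr, which regenerates reduced glutathione, fell by 0.12 on the log2 scale (adjusted p = 0.014), a call lost without Control replicate 2 (-0.11, adjusted p = 0.055), STZ replicate 1 (-0.11, adjusted p = 0.065) or STZ replicate 2 (-0.10, adjusted p = 0.078). Txnrd2, named after its values were seen, fell by 0.61 on the log2 scale (adjusted p = 1.4e-05). Txnrd2 kept its call whichever sample was left out, with means of 15.4 CPM in Control and 10.1 CPM in STZ. Its relative Txnrd1, also named after its values were seen, went the other way. Txnrd1 rose by 0.31 (adjusted p = 2.8e-08), with means of 334 CPM in Control and 414 CPM in STZ.

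Of 10 genes tested for the export of conjugates and the transport of glutathione, 6 rose and 0 fell, against 25.9% and 25.1% of all genes. Their median log2 fold change was 0.22. This list joins efflux pumps of the plasma membrane with mitochondrial carriers, and of those that rose Slc25a39 (0.23, adjusted p = 6.5e-06) and Slc25a10 (0.20, adjusted p = 0.0025), named after their values were seen, are carriers. Abcc1, the main exporter of glutathione conjugates, had 66.5, 66.0 and 67.6 CPM in Control and 93.5, 95.9 and 88.7 CPM in STZ. Its groups did not overlap, and its log2 fold change was 0.47 (± 0.05 SE, adjusted p = 1.3e-10). The efflux pump Abcg2 rose by 0.66 (adjusted p = 1.1e-08) and Abcc5 by 0.31 (adjusted p = 3.0e-07). Of 11 genes of glutathione breakdown and mercapturate formation, 2 rose and 3 fell, against the same shares of all genes.

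Ggt1, which removes the glutamyl group of glutathione and its conjugates at the cell surface, had 42.5, 44.8 and 47.9 CPM in Control and 68.0, 75.9 and 81.4 CPM in STZ. All STZ samples were higher, by 0.73 on the log2 scale (± 0.06 SE, adjusted p = 1.9e-13). Chac1, which degrades glutathione in the cytosol, rose by 0.97 (adjusted p = 2.6e-10), and the dipeptidase Cndp2 fell by 0.39 on the log2 scale (adjusted p = 9.8e-09). Dpep1, the surface dipeptidase that acts after Ggt1 and named after its values were seen, had 20, 19 and 14 reads in Control and 6, 4 and 6 reads in STZ (-1.93, adjusted p = 7.5e-05).

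**Figure D4:**
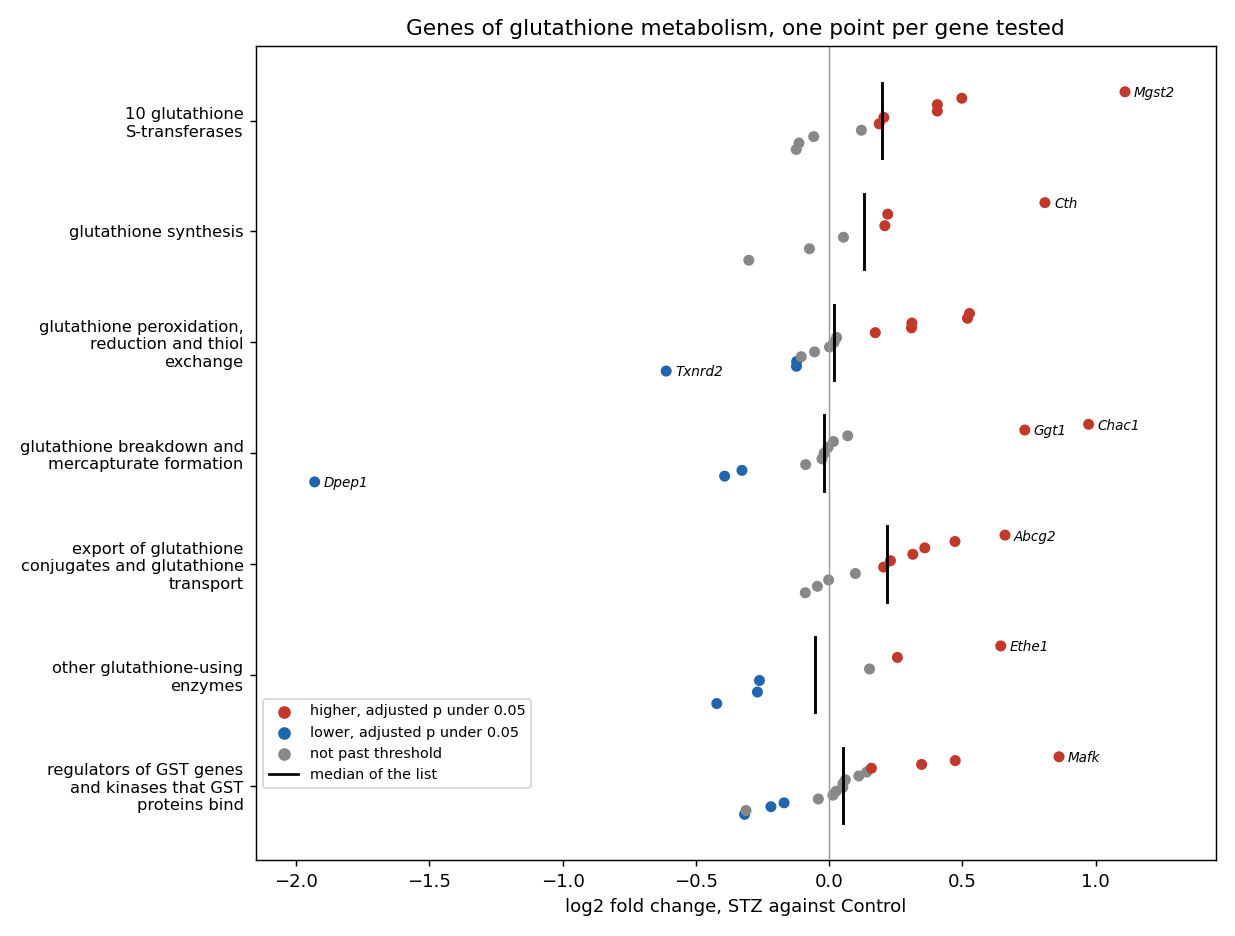
Log2 fold change (STZ against Control) of every gene tested among the 10 GST genes and 6 lists of glutathione genes, 1 point per gene, coloured by the adjusted p-value, with the median of each list as a black line. The export and transport list and the 10 GST genes have medians of 0.22 and 0.20, and the other lists lie between -0.05 and 0.13. Txnrd2 and Mafk are labelled for the size of their values, as are Mgst2, Cth, Dpep1, Ggt1, Chac1, Abcg2 and Ethe1.

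Of 6 other enzymes that use glutathione, 2 rose and 3 fell, against 25.9% and 25.1% of all genes. Ethe1, a mitochondrial persulfide dioxygenase, rose by 0.64 (adjusted p = 3.8e-09) and the glyoxalase Glo1 by 0.26 (adjusted p = 1.6e-06), whereas Adh5, which oxidizes the adduct of glutathione and formaldehyde, fell by 0.42 on the log2 scale (adjusted p = 9.4e-10). Of 16 genes for regulators of GST expression and kinases bound by GST proteins, 4 rose and 3 fell, against the same shares of all genes. Cebpb rose by 0.47 (adjusted p = 1.2e-07) and the xenobiotic receptor Ahr by 0.35 (adjusted p = 8.4e-07), and Mapk8, which encodes JNK, fell by 0.32 on the log2 scale (adjusted p = 2.2e-05). The other calls in this list were named after their values were seen. Mafk rose by 0.86 (adjusted p = 1.2e-04) and Nr3c1 by 0.16 (adjusted p = 0.0012). Arnt fell by 0.22 (adjusted p = 1.2e-04) and Mafg by 0.17 (adjusted p = 0.0024), both on the log2 scale. The mRNA of Nrf2, encoded by Nfe2l2 (0.06, 95% interval -0.02 to 0.14), and that of its inhibitor Keap1 (0.05, 95% interval -0.05 to 0.16) did not pass the threshold, which says nothing of the activity of the proteins.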

How the data were processed

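RNA-seq libraries (TruSeq stranded mRNA) of 3 Control and 3 STZ samples were sequenced. The authors mapped 100-base single-end reads to Rnor6 with STAR 2.7.10a and deposited raw counts of uniquely mapped reads per gene from featureCounts, without normalization. The strand setting and annotation release are not given in the sources used here. Columns were assigned to samples by title.

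In R 4.3.3, edgeR 4.0.16 was used for TMM scaling (factors 0.988 to 1.02), filterByExpr and the quasi-likelihood test on the whole table of 18930 rows, with Benjamini-Hochberg adjustment over 11870 genes. The call was an adjusted p-value under 0.05. The study also required an absolute log2 fold change over 1. Standard errors were obtained as |log2 fold change| over the root of F. Levels are CPM on the TMM scale. Transcript lengths were not used, so sums, shares and ratios across genes describe reads and not numbers of transcripts. The steps were run on simulated data as a check of the code. Far fewer genes changed there than were called here, so it does not test the scaling where many genes change. Alternatives were other scalings, filters and tests (DESeq2 1.42.0, limma 3.58.1), the replicate block and each sample left out. No pair of samples in a group looked like 1 library deposited again (chi-square per degree of freedom 1.80 to 2.48).

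Members and lists were chosen with earlier results of these data known. Besides the cell type markers, genes named by rule are the 10 members, all genes of the GST-fold and MAPEG list with a row, and the 3 genes with the smallest p in each other list. Gclc, Gclm, Gss, Gsr, Slc7a11, Abcc1, Nfe2l2 and Keap1 were named in any case. Gstm6l, Dpep1, Slc25a39, Slc25a10, Txnrd1, Txnrd2, Mafk, Nr3c1, Arnt and Mafg were named after their values were seen. Class sums were chosen after seeing the data.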

Additional observations from a re-analysis of the deposited data

How the results depend on the processing

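With the log2 fold change required to exceed 1, 1 gene (Mgst2) was higher in place of 6. With the other 9 settings 5 to 6 were higher and 0 lower. Over all genes, these settings called 2598 to 3139 higher and 2451 to 3485 lower, of 11297 to 18930 tested. With 1 sample left out, 4 to 6 of the genes described here were higher and 0 to 2 lower. Over all genes, the fits with 1 sample left out called 2771 to 2878 higher and 2629 to 2801 lower, of 11934 to 12071 tested. The log2 fold change ranged over these 6 fits from 0.13 to 0.27 for Gsta4, 0.12 to 0.28 for Gstm1, 0.24 to 0.60 for Gstt1, -0.25 to -0.040 for Gstt2, 0.074 to 0.16 for Gsto1 and -0.19 to -0.076 for Mgst1, and over -0.34 to 0.13 for Gstm2. Gstt1 lost its call with library size only (0.37) and by DESeq2's Wald test (0.40). Gstm2, never past the threshold, changed sign with limma-voom (0.0017), without Control replicate 1 (0.13), without Control replicate 2 (0.06) and without STZ replicate 3 (0.02). The sum of the theta-class rows changed sign with library size only (-0.017), with the upper quartile (-0.0032) and without Control replicate 3 (-0.13), and ranged from -0.13 to 0.11 over fits with 1 sample left out. Eef1g changed sign with library size only (-0.026) and with the upper quartile (-0.012), and Ptges2 without STZ replicate 1 (0.0023, range -0.14 to 0.0023). In each of these cases the cause was not tested. The largest shift of the median of all genes came with library size only, from -0.01 to -0.04.

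Same-numbered samples had correlations of 0.0324, -0.0378 and 0.105 between their deviations from the group means across 10341 genes, which are not independent. With STZ samples of other numbers, Control replicate 1 had -0.123 to 0.0866, replicate 2 0.0168 to 0.0232 and replicate 3 -0.0532 to -0.0498. With 3 samples per group these values cannot decide whether same-numbered samples shared a batch, and the main fit assumed no pairing. Fitting the replicate block gave 6 genes higher and 0 lower, against 3139 and 3060 of all 11870 genes tested. The block changed no call of a named gene. Txnrd1, Nr3c1, Arnt and Mafg were not compared between settings. Genes with few reads, such as Gstm2, Mgst3 and Slc7a11, are limited by depth.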
